A study of Mus musculus with 2 samples.

Results

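The genes described here are known from macrophages and other leukocytes: markers of resident macrophages, components and receptors of complement, genes of antigen presentation by MHC class II, pan-leukocyte genes, pattern receptors and chemokines. They were chosen by name, as 49 gene symbols, and read through the probe sets of the array that carry exactly 1 of these symbols in the platform annotation. Of the 49 genes, 48 were read, by 69 probe sets, out of 12393 genes on the array with 1 symbol, and C3 was not analysed here. Signals of the UBR2-/- and wild type arrays were known when the list was drawn up, so its values are a description. The study measured total RNA of testes from mice 17 days old on Affymetrix mouse genome 430A 2.0 arrays, in which labelled RNA binds sets of short probes and each probe set gives a signal. Both groups have the strain label 129SV and C57BL mixed; one is wild type, and the other is UBR2-/-, which lacks UBR2, an enzyme that attaches ubiquitin to proteins with certain N-terminal residues. Each genotype has 1 array, for which 2 testes from different animals of a litter are named, and the sources used here do not say whether their RNA was pooled. Without replicate arrays no test could be run, and every difference describes these 2 arrays only.

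Macrophages are the main immune cells of the testis. In the mouse they lie among the Leydig cells of the interstitium and, as a second population, along the wall of the seminiferous tubules. The interstitial cells are known for the mannose receptor Mrc1 and the growth factor receptor Csf1r, and the peritubular cells for more MHC class II, the molecules that present peptides to helper T cells. Complement begins with C1q, a protein of 3 chains that binds antibody complexes and dying cells, and macrophages make much of the C1q in tissues. Germ cells that die in the tubules are cleared mostly by Sertoli cells, the somatic cells that nurse them.

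Signals are linear intensities on the authors' scale. A signal under the 40th percentile of its array, 24.4 for wild type and 24.7 for UBR2-/-, was raised to that floor, and a gene was compared when the mean of its 2 signals reached 24.55. A gene with several probe sets is given by the brightest, and where 1 of its 2 signals was at the floor the fold is a bound. Ratios are UBR2-/- over wild type on the log2 scale. Over all 8091 compared genes the median ratio was 0.07, with quartiles of -0.17 and 0.28. Where a gene had several probe sets, the spread between them gave an SD of a single probe set's ratio of 0.28 at dim, 0.22 at intermediate and 0.17 at bright signals; error between arrays or animals is not part of it. Ubr2 itself had signals of 57.2 and 14.3 in its 1 probe set, lower by at least 2.32-fold, and the sources used here do not place that probe set relative to the deletion. Bacterial and phage control transcripts had a median ratio of 0.35 over 42 probe sets, so scaling on them would lower every ratio by about that much. Scaling to the array median, quantile and loess normalization moved the median of all genes by less than 0.1.

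Most of the macrophage and leukocyte genes that could be compared had similar signals on both arrays, as did most of all compared genes. Of the 48 genes, 27 were bright enough to be compared, 3 of them as a bound, and 21 lay below the floor on both arrays, with signals from 0.3 to 22.2. Among the 27 genes, the Fc receptor gene Fcgr3 was 1.5-fold or more lower, Ly96 and Ptprc were 1.5-fold or more higher, and 24 lay between. Over all 8091 compared genes 7.71% were at least 1.5-fold lower and 4.21% at least 1.5-fold higher, and 7126 lay between. Past 2-fold were Fcgr3, on the lower side, and Ly96, just past 2-fold on the higher side, against 3.52% of all genes at least 2-fold lower and 0.346% at least 2-fold higher. Each count of members past a fold rests on 1 or 2 genes, and nothing particular to the list is read from it. The same holds for counts of 0 in the short lists below, since most of all genes lay within 1.5-fold. The median ratio of the 27 genes was -0.06, against 0.07 over all genes, with quartiles of -0.24 and 0.17. Of the 27 genes, 17 lay below the median of all genes, against 50% of all genes by construction. This difference of -0.13 between the medians stayed between -0.15 and -0.11 under the alternatives, while with scaling on the control transcripts the median of the members itself was -0.41. Whether the -0.13 exceeds the variation between arrays or animals was not tested. A difference in macrophage number and one in RNA per macrophage cannot be told apart in RNA of whole testes.

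**Figure D1:**
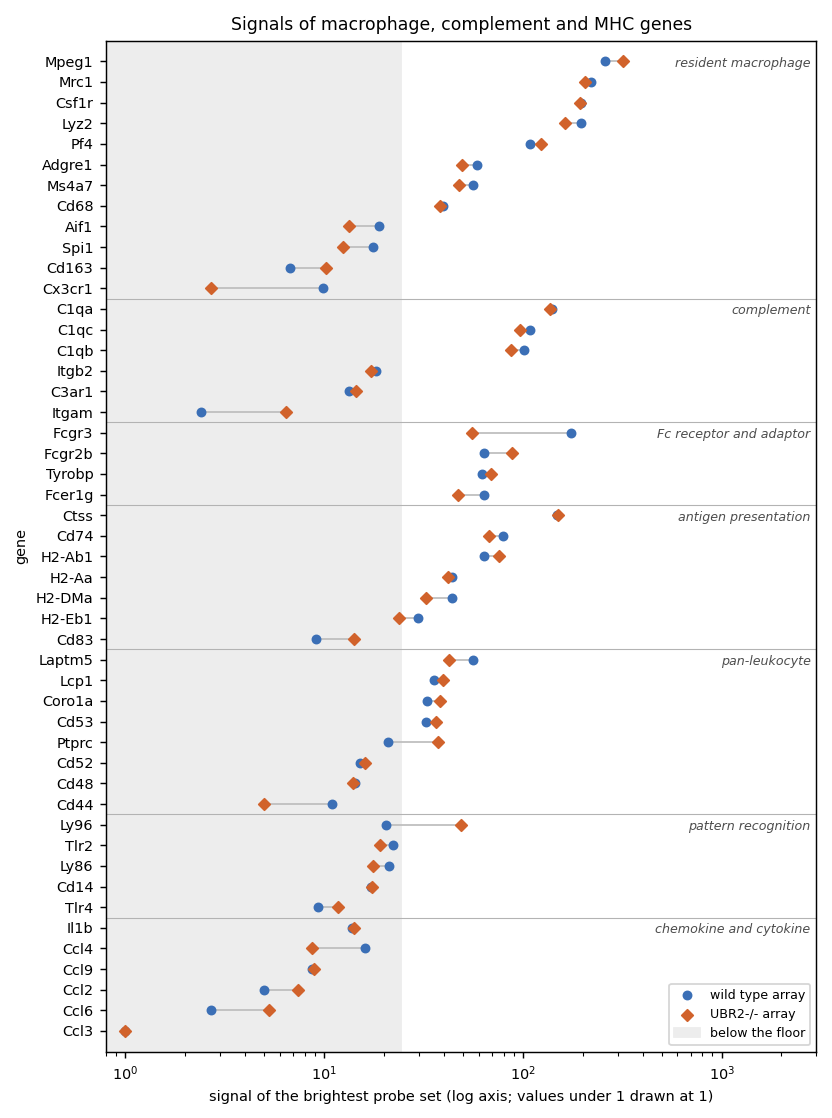
Signals of the brightest probe set of each of the 48 genes on the wild type array (circles) and the UBR2-/- array (diamonds), on a log axis and grouped by role, with 1 array per genotype and the floor of the wild type array as the edge of the grey area. Within a gene the 2 signals are mostly close, apart from Fcgr3 at 174.6 and 55.5 and Ly96 at 20.4 and 48.9; positions of different genes on the axis reflect their probes and are not levels to be compared.

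The resident macrophage group held the growth factor receptor Csf1r, the surface protein F4/80 (Adgre1), the lysosomal protein Cd68, the mannose receptor Mrc1, lysozyme (Lyz2), the pore-forming protein Mpeg1, the membrane protein Ms4a7 and the chemokine Pf4. All 8 were above the floor on both arrays and 0 were 1.5-fold apart, as was the case for 7126 of all 8091 compared genes. Csf1r, which macrophages need for survival, had signals of 196.1 (wild type) and 193.8 (UBR2-/-), the order of all signal pairs below. Its ratio was -0.02, and its other probe sets had -0.20 and 0.13, on either side of 0. Mrc1, a scavenger receptor for glycoproteins, had 221.2 and 206.5, a ratio of -0.10. These signals of the defining interstitial macrophage genes differed by less than the SD of 1 probe set.

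Mpeg1 went the other way, with 258.7 (wild type) and 320.2 (UBR2-/-), a ratio of 0.31 that became -0.04 with scaling on the control transcripts. Pf4, a chemokine stored in platelets and also made by some macrophages, had 108.6 and 124, a ratio of 0.19. Lyz2 had 197 and 163.8, a ratio of -0.27. These genes are all used by macrophages, yet Mpeg1 and Lyz2 lay on opposite sides of 0 by more than 1 SD of a probe set each. Adgre1 had 58.6 and 49.6, Ms4a7 had 55.8 and 47.8, and Cd68 had 39.8 and 38.2, with ratios of -0.24, -0.22 and -0.06. The group's median was -0.08, and 6 of the 8 genes lay below the median of all genes.

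The other 4 genes of this group lay below the floor on both arrays, among them genes often used to define macrophages. The fractalkine receptor Cx3cr1 had signals of 9.9 and 2.7, the haemoglobin scavenger receptor Cd163 had 6.7 and 10.2, the transcription factor PU.1 (Spi1) had 17.7 and 12.4, and Aif1 had 18.9 and 13.3. No order can be read between such values. The label of a macrophage group thus rests on Csf1r, Adgre1, Cd68, Mrc1, Lyz2 and Mpeg1 in these arrays, and not on Cx3cr1, Cd163, Spi1 or the integrin Itgam, which was also below the floor. The brightest signals of the 12 genes summed to 1189 (wild type) and 1182.5 (UBR2-/-). Bright probe sets weigh most in these sums, where a higher Mpeg1 offset lower signals such as those of Lyz2 and Mrc1. The sums are thus not a level of the group.

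In the complement group, the genes for the 3 chains of C1q had lower signals on the UBR2-/- array, each by less than 1.5-fold and by about the SD of 1 probe set or less. C1qa had signals of 139.7 and 136.9, a ratio of -0.03. C1qb had 101.5 and 87.1, a ratio of -0.22, with -0.38 and 0.04 in its other 2 probe sets. C1qc had 109 and 96.2, a ratio of -0.18. All 3 lay below the median of all genes, although the probe sets of C1qb spanned 0. The receptors C3ar1, for the complement fragment C3a, and Itgam with Itgb2, which together form complement receptor 3, lay below the floor on both arrays, with 13.3 and 14.5, 2.4 and 6.4, and 18.3 and 17.3.

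Complement genes outside the list were mostly higher on the UBR2-/- array. Of 22 such genes 16 were read and 9 compared, 0 of them 1.5-fold apart, and 8 of the 9 were above the median of all genes, at a list median of 0.37. C1ra and C1s1, the proteases that C1q activates, had 89.2 and 118.7 and 221.7 and 290.2, with ratios of 0.41 and 0.39. These genes are also made by cells other than macrophages. Cd59a had 0.43 in its brightest probe set and 0.99 in its other compared one. Under the alternatives that compared the same number of genes, the median of these 9 genes lay 0.29 to 0.31 above that of all genes, while that of the 3 C1q genes relative to all genes ran from -0.26 to -0.23. This difference between the lists was not tested.

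The receptors for antibody went apart, and Fcgr3 had the ratio farthest from 0 among the members above the floor on both arrays. Fcgr3, which codes for the activating IgG receptor Fc gamma RIII, gave signals of 174.6 (wild type) and 55.5 (UBR2-/-). That is 3.15-fold lower, a ratio of -1.65, and 112 of the 8091 compared genes were lower still. Fcgr2b, the inhibitory IgG receptor, had 64 and 88.5, a ratio of 0.47, and its other 3 probe sets had 0.13, 0.17 and 0.73. All 4 of its probe sets lay above 0, with 0.73 as a bound and 0.13 and 0.17 within the SD of 1 probe set, 0.28. All 4 are also of types (_a_at, _s_at or _x_at) that can bind several transcripts, so leaving those out removes Fcgr2b. The brightest probe sets of the 2 receptor genes thus had ratios of opposite sign, that of Fcgr2b by less than 1.5-fold. The ratio of Fcgr2b was 0.12 with scaling on the control transcripts.

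Fcer1g codes for the gamma chain that Fc gamma RIII needs at the cell surface and for its signal, and Tyrobp for the related adaptor DAP12. Fcer1g had 63.8 and 47.4, a ratio of -0.43, and Tyrobp had 62.4 and 68.9, a ratio of 0.14. Neither was 1.5-fold apart. The other Fc receptor genes Fcgr1 and Fcgr4 lay below the floor on both arrays, at 15.4 and 14.3 and at 1.5 and 8.5. Fcgr3 was read by 1 probe set, so its value has no check from another, and Fc receptor genes are close relatives in sequence. Fcgr3 differed by -1.65 while the macrophage genes Csf1r and Mrc1 differed by -0.02 and -0.10.

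Fcgr2b, Fcgr4 and Fcgr3 lie side by side on chromosome 1, with Fcer1g a few genes away. Of the 16 genes of the array nearest to Fcgr3, 8 on each side, a view chosen after its value was seen, 11 were compared and 5 lay below the floor rule. The 11 had ratios from -0.44 to 0.73. Sdhc, its neighbour on 1 side and a subunit of the mitochondrial respiratory chain, had 734.7 and 655.4, a ratio of -0.16. No neighbour came near the ratio of Fcgr3. Both genotypes carry the mixed strain label, and the sources used here do not say which strain's alleles each carries at this place. Their part in the result was not tested.

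The 150 bases before the start of Fcgr2b and Fcgr3 are shown because the brightest probe sets of these neighbouring genes of 1 receptor family had ratios of opposite sign. They are from RefSeq, build GRCm38.p6, minus strand, at chr1:170976072-170976221 and chr1:171059404-171059553. Capitals mark GAGGAA, a core bound by PU.1, and GGAAGT, a site of the ETS family to which PU.1 belongs, on either strand.
Fcgr2b: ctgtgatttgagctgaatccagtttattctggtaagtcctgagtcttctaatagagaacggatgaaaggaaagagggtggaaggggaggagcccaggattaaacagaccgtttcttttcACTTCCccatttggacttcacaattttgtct
Fcgr3: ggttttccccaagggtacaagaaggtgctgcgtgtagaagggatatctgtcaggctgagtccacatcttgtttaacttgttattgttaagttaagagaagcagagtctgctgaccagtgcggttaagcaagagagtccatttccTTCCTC
Each window holds 1 match, a GGAAGT on the opposite strand in Fcgr2b and a GAGGAA on the opposite strand in Fcgr3, which ends at the start itself. Of the 48 genes 34 have a promoter in the table, 20 of them compared, and over these 34 GAGGAA was found in 9 (26.5%) and GGAAGT in 10 (29.4%). Over the promoters of 27025 genes, taken at the first listed start, the shares were 14.4% and 13.9%. The 2 motifs can overlap, since the last 4 bases of GAGGAA are the first 4 of GGAAGT. A match is a description of letters and not a binding site.

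**Figure D2:**
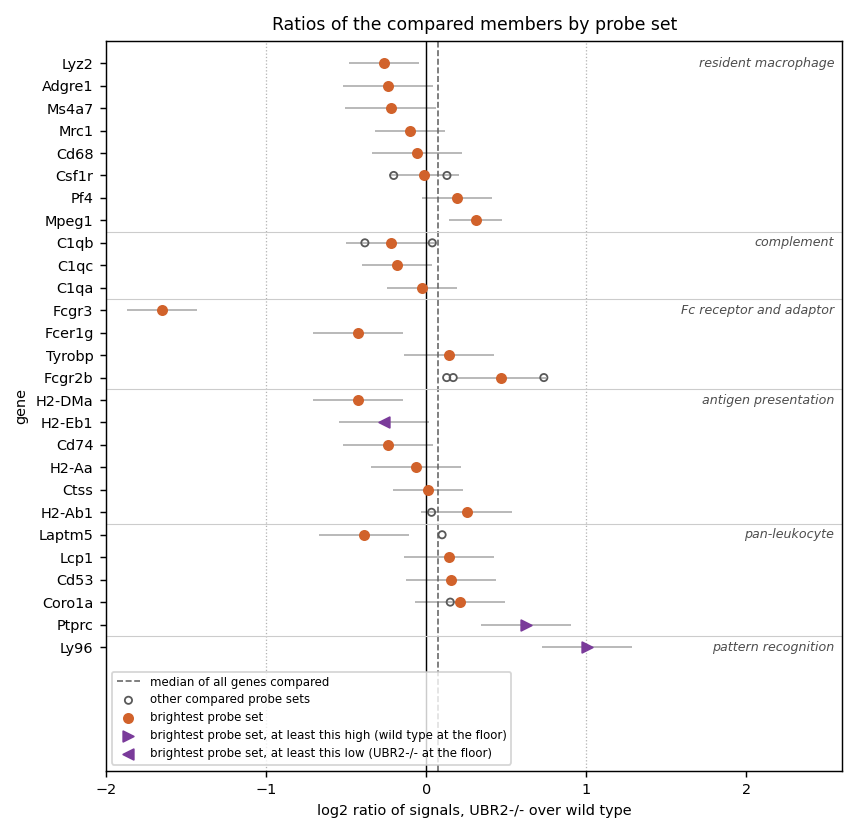
Log2 ratio of signals, UBR2-/- over wild type, for each of the 27 compared genes by role; filled points are the brightest probe set with the SD of 1 probe set of its signal class as the bar, open circles are other compared probe sets, triangles are bounds, and dotted lines mark 2-fold. Fcgr3 stands at -1.65 and Fcgr2b at 0.47, while the resident macrophage genes lie between -0.27 and 0.31.

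Genes of antigen presentation by MHC class II went both ways, all within 1.5-fold. The class II chains are H2-Aa (alpha of the A molecule), H2-Ab1 (its beta) and H2-Eb1 (beta of the E molecule). H2-Aa had 44 and 42.1, a ratio of -0.06. H2-Ab1 had 63.5 and 75.6, a ratio of 0.25, with 0.03 in its other compared probe set. H2-Eb1 had 29.7 and 23.8, just below the floor of the UBR2-/- array, which makes it at least 1.20-fold lower. The alpha and beta chain of the A molecule thus lay on either side of the median of all genes, by no more than the SD of 1 probe set. H2-Aa, H2-Ab1, H2-Eb1, H2-DMa and Adgre1 lie on chromosome 17, as Ubr2 does. These 5 genes had a median of -0.24, against 0.02 over the 410 compared genes of that chromosome. The other chromosomes with at least 4 compared members went both ways. On chromosome 4 the 4 members had a median of -0.20 against 0.06 over its genes. On chromosome 1 the 5 members had 0.47 against 0.05. The sources used here do not say which strain's alleles each genotype carries on chromosome 17, and the part of such alleles was not tested.

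Cd74, the invariant chain that guides class II through the cell, had 79.9 and 67.6, a ratio of -0.24. H2-DMa, which helps load the peptide, had 44 and 32.7, a ratio of -0.43. Ctss, the protease that trims the invariant chain, had 148.9 and 150.2, a ratio of 0.01. Cd83, a marker of mature antigen-presenting cells, lay below the floor on both arrays at 9.1 and 14.2. The median of the 6 compared genes was -0.15, with 5 below the median of all genes. H2-Aa, H2-Ab1 and Cd74 were read only by probe sets that can bind several transcripts. Without such probe sets 3 genes remained, and the distance of the group's median from all genes went from -0.23 to -0.34.

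The promoters of H2-Aa and H2-Eb1 are shown because class II genes share a known arrangement, the X and Y boxes, read by the RFX and NF-Y factors with the coactivator CIITA. The 150 bases before the start are from RefSeq, build GRCm38.p6, at chr17:34287824-34287973 on the minus strand and chr17:34305717-34305866 on the plus strand. Capitals mark GCAACT, here used as an X box core, and CTGATTGG, used as a Y box.
H2-Aa: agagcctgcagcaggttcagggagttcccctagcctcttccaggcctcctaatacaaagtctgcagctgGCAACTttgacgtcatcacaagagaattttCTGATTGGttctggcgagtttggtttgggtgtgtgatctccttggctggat
H2-Eb1: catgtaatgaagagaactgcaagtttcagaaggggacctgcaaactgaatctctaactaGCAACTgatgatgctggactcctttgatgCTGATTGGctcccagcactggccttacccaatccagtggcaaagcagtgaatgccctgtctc
GCAACT ended 24 bases before CTGATTGG in H2-Aa and 23 bases before it in H2-Eb1. Both strands were searched, the 2 motifs do not overlap, and the letters were chosen with these promoters in view. GCAACT was found in 5.34% of the 27025 genes, CTGATTGG in 3.4% and both in 0.148%. Among the 34 genes H2-Aa and H2-Eb1 held both, and no other held either. Only these exact letters were searched, and members outside the 34 had no promoter to search. The search thus does not show that other class II genes lack the boxes.

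Other genes around MHC differed from the class II chains only modestly. Of 15 further genes of the class II path 13 were read and 9 compared, 0 of them 1.5-fold apart, with a median of 0.22 and 6 above the median of all genes. Ifi30 and Lgmn, lysosomal enzymes of antigen processing, had 165.7 and 204.1 and 618.1 and 765.2, with ratios of 0.30 and 0.31. Rfxank, a subunit of the RFX factor, had 0.50 in its brightest probe set and -0.90 in its other compared one. The class II coactivator Ciita was read below the floor rule. Of 19 genes of the MHC class I path 13 were read and 9 compared, also 0 of them 1.5-fold apart, with a median of 0.17. B2m, the light chain of class I, had 477.5 and 600.3, a ratio of 0.33, and the heavy chain H2-K1 had 1164.5 and 1335.8, a ratio of 0.20. Class I is made by nearly all somatic cells, and its list median relative to all genes was -0.05 when probe sets that can bind several transcripts were left out.

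Pan-leukocyte genes lay slightly above all genes, apart from Laptm5. Ptprc, the leukocyte surface phosphatase CD45, had signals of 20.9, below the floor, and 37.6, which makes it at least 1.54-fold higher on the UBR2-/- array. Coro1a and Lcp1, which bind and bundle actin in leukocytes, had 33.1 and 38.3 and 35.8 and 39.5, with ratios of 0.21 and 0.14. The tetraspanin Cd53 had 32.7 and 36.4, a ratio of 0.15. These signals were close to the floor, where the SD of 1 probe set is largest. Laptm5, a lysosomal protein of leukocytes, had 55.9 and 42.7, a ratio of -0.39, and 0.10 in its other compared probe set. The 5 compared genes had a median of 0.15, and 4 of them exceeded the median of all genes. Cd52, Cd48 and the hyaluronan receptor Cd44 lay below the floor, at 15.1 and 16.1, at 14.3 and 14, and at 11 and 5.

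Markers of other leukocytes were nearly all too dim to compare. Of 14 genes of T, B and NK cells that were read, 13 lay below the floor rule, and the brightest signals of the 14 summed to 196.7 (wild type) and 142.9 (UBR2-/-). The remaining gene was Zap70, a kinase of the T cell receptor, with 134.1 and 56, a ratio of -1.26. All 11 granulocyte and mast cell genes and all 4 erythrocyte genes that were read lay below the floor rule. Their sums were 53.6 and 59 and 15.4 and 10.9, and no order can be read between sums of such signals. Zap70 made up most of the lymphocyte sum on the wild type array. The part of lymphocytes in the ratios of Ptprc and the other pan-leukocyte genes was not tested.

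Among the pattern receptors, 1 of 5 genes was compared. Ly96, also called MD-2, is the protein that holds lipopolysaccharide for the receptor TLR4, and it had signals of 20.4, below the floor, and 48.9, at least 2.00-fold higher on the UBR2-/- array. Its 1 probe set has no check from another. The partners of Ly96 were at the floor on both arrays, with Tlr4 at 9.3 and 11.8 and the coreceptor Cd14 at 17.3 and 17.4. Tlr2 had 22.2 and 19.2, and Ly86, a relative of Ly96, had 21.1 and 17.6. Of all compared genes, 26 had a higher ratio than Ly96. Tlr2, with a mean signal of 20.7, was the brightest member left out, and H2-Eb1, with 26.75, the dimmest one compared.

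Of 22 genes of Toll-like receptor and inflammatory signalling, 19 were read and 7 compared. Myd88, the adaptor of most Toll-like receptors, had 146.3 and 83.1, a ratio of -0.82, and was the 1 gene past 1.5-fold. Irak1, a kinase that acts after Myd88, had 103.9 and 131.1, a ratio of 0.34. The list had a median of 0.34, with 6 genes above the median of all genes and Myd88 below it. That median is the brightest probe set of Irak1, whose lowest probe set had -0.33. The distance of the list from all genes, 0.26, was 0.08 with the mean over probe sets and 0.08 with a floor at the 60th percentile, where 5 genes were compared. Among genes of this list below the floor rule were the inflammatory cytokines Tnf, Il6 and Il1a.

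All 6 chemokine and cytokine genes lay below the floor on both arrays, which gives no ratio. Ccl2, which draws monocytes, had 5 and 7.4, Ccl3 and Ccl4, made by activated macrophages, had 0.8 and 0.3 and 16.1 and 8.7, and Ccl6 and Ccl9 had 2.7 and 5.3 and 8.7 and 8.9. The inflammatory cytokine gene Il1b had 13.8 and 14.2. No difference between the arrays was detectable for these genes at such signals. Of 18 other chemokine and receptor genes 17 were read and 5 compared, 0 of them 1.5-fold apart, with a median of 0.18. Cx3cl1, the ligand of Cx3cr1, had 55.1 and 79.3 and Cxcl12 had 162.3 and 242.1, with ratios of 0.53 and 0.58. Csf1, the growth factor that Csf1r binds, had 64.1 and 79.8, a ratio of 0.32, and Csf2ra, a subunit of the receptor for another myeloid growth factor, had 112.3 and 104.4, a ratio of -0.11. The probe sets of Cx3cl1 and Csf1 went apart, and the lowest of those above the floor had -0.06 and -0.25.

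Further macrophage genes gave a mixed picture. Of 30 listed genes 24 were read and 7 compared, with 17 below the floor rule, and the median was 0.21. Vsig4, a complement receptor of resident macrophages, had 23.2 and 28.3, at least 1.16-fold higher, and the folate receptor Folr2 had 52.6 and 55.3, a ratio of 0.07. Past 1.5-fold were Alox5ap, an activator of leukotriene synthesis, with 26.4 and 43.5 and a ratio of 0.72, and Lyve1, a hyaluronan receptor of lymphatic vessels and some macrophages, with 23.3 and 44.6, at least 1.83-fold higher. The place of this list above all genes turned with a floor at the 25th percentile. Of 16 genes for the clearance of dying cells 15 were read and 14 compared, 0 of them 1.5-fold apart, with a median of 0.19 and 10 above the median of all genes. Mertk and Axl, receptors for dying cells on Sertoli cells and macrophages, had 105 and 123.7 and 413.3 and 490.4, with ratios of 0.24 and 0.25. Elmo1 of this list had 0.24 in its brightest probe set and 0.74 in its other compared one.

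**Figure D3:**
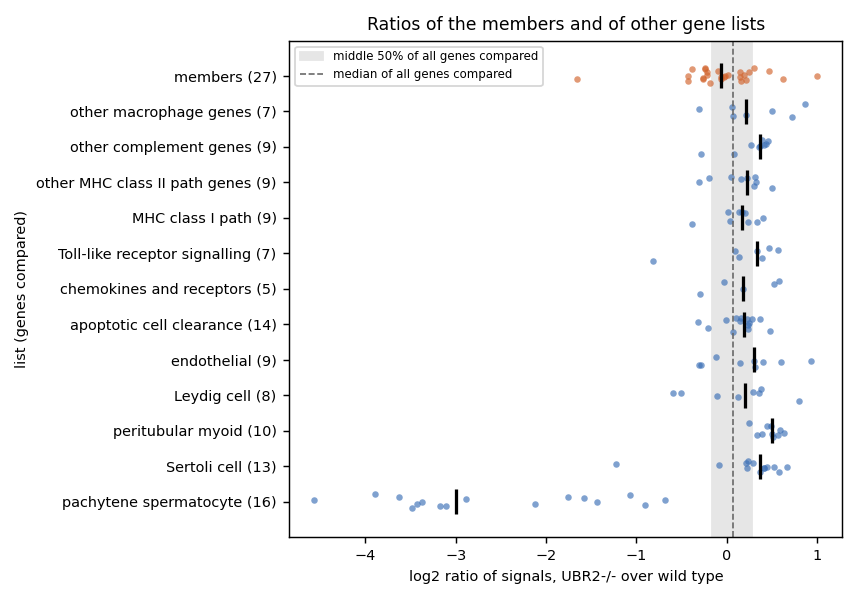
Log2 ratio of signals, UBR2-/- over wild type, of the 27 compared members (top row) and of the compared genes of other lists, with the number of genes in parentheses, a black bar at the median of each list, and the middle 50% of all genes in grey. The members have a median of -0.06, the Sertoli, Leydig, myoid and endothelial lists lie between 0.21 and 0.50, and the pachytene spermatocyte list lies at -2.99.

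Germ cell markers differed widely between the arrays, so the marker lists of other testis cells are given beside the macrophage genes. All 16 genes of pachytene spermatocytes, the germ cells that dominate the tubules at this age, were at least 1.5-fold lower, with a median of -2.99 and brightest signals that summed to 14696.8 (wild type) and 2993.9 (UBR2-/-). Ldhc had 3709.3 and 430.5 and Hspa2 1405 and 752.6, and the 16 ratios ran from -4.57 for Adam5 to -0.68 for Tbpl1. Genes of somatic cells were mostly above the median of all genes. The 10 peritubular myoid genes had a median of 0.50, and all 10 were above it, with Acta2 at 0.49 and, past 1.5-fold, Myh11 at 0.64 and Tpm2 at 0.59. The 13 Sertoli cell genes had a median of 0.36 and 11 above it, with Sox9 at 0.29 and Fshr at 0.58, and past 1.5-fold were Gdnf, at least 1.59-fold higher, and Amh at -1.23. The 8 Leydig cell genes had 0.21 with 5 above it, among them Star at 0.80, and the 9 endothelial genes 0.30 with 6 above it. Of the endothelial genes Cldn5 had 0.94, Kdr was at least 1.51-fold higher, Cdh5 had 0.41 and Pecam1 was at least 1.21-fold lower with 20 on the UBR2-/- array.

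The 8 resident macrophage genes, with a median of -0.08 and 2 above the median of all genes, lay lower than each of these somatic lists. The 7 further macrophage genes, with a median of 0.21 and 4 above that of all genes, lay at the level of the Leydig list. Under the alternatives that compared the same number of genes, the median of the 8 resident genes relative to all genes ran from -0.16 to -0.14, that of the 8 Leydig genes from 0.13 to 0.15 and that of the 10 myoid genes from 0.39 to 0.42. For the 13 Sertoli genes it ran from 0.18 with quantile normalization to 0.30 with the mean over probe sets. For the 9 endothelial genes it ran from 0.18 with a pseudocount to 0.24 with the mean over probe sets. With a floor at the 60th percentile the resident list held 5 genes, at -0.08. Individual genes overlapped, since Mpeg1 at 0.31 lay within the range of the somatic genes and the Leydig gene Cyp11a1, the first enzyme of steroid synthesis, lay at -0.59. These lists hold few genes, and the difference was not tested. The members and all these lists, the pachytene spermatocyte list included, were chosen with earlier results of these data known. The part of the changed germ cell content in the ratios of the macrophage genes was not tested.

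**Figure D4:**
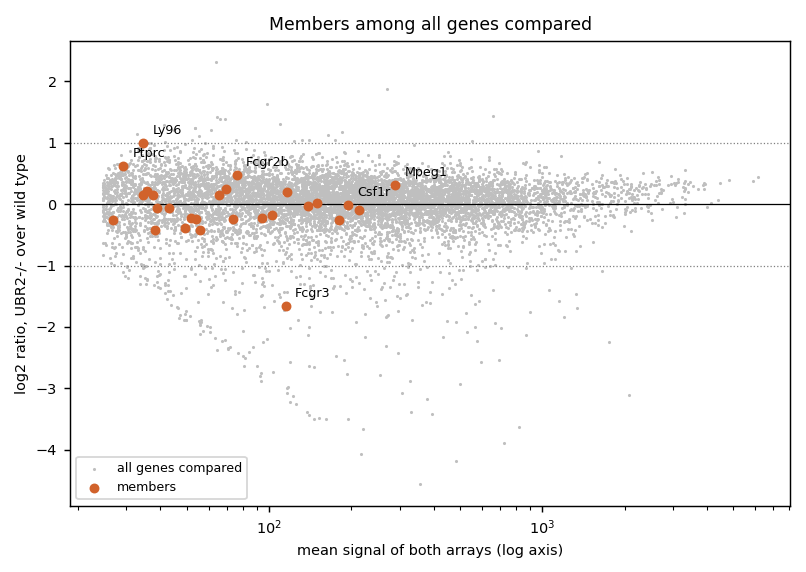
Log2 ratio of signals, UBR2-/- over wild type, against the mean signal of both arrays (log axis) for all 8091 compared genes (grey) and the 27 compared members (filled), with dotted lines at 2-fold. Apart from Fcgr3 at -1.65 and Ly96 at its bound of 2-fold, the members lie within 2-fold and inside the cloud of all genes at their signal.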

How the data were processed

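The deposited values are probe set intensities on a linear scale, made by the authors with MAS5, per the submitters' processing notes, from biotin-labelled RNA, per the labels. The sources used here name no version or settings of MAS5 and no detection calls. Both arrays had a 2% trimmed mean of 150.04, and this scaling was kept. Of 22690 probe sets, 64 were controls, and 20380 of the others had 1 gene symbol in the platform annotation and were used. Names were updated through the Entrez identifier, which matched GRCm38.p6 for 20351 of them.

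Signals under the 40th percentile of each array were raised to it, ratios were taken on the log2 scale for the whole table, and counts used folds of 1.5 and 2. Groups are the genotypes in the labels, with 1 array each, so no p-value or SE exists and the number of arrays limits the precision. The members and lists were chosen with earlier results of these data known. Every member is named. From the other lists the text names the first 2 compared genes and each gene past 1.5-fold, except that the pachytene spermatocyte genes are given by their first 2 and their extremes. Other genes are named where a comparison turns on them and were chosen after their values were seen. Neighbours of Fcgr3 and promoter motifs were also chosen after seeing the data, with promoters taken from RefSeq over 150 bases before the start. The calculation was tested on simulated data with Python 3.11.15 and pandas 2.3.3. Alternatives were other scalings, floors at the 25th and 60th percentiles, a pseudocount (10), averaging the probe sets of a gene, a lower fold threshold, and leaving out the _s_at, _x_at and _a_at probe sets, which can bind several transcripts. Genes above the floor on both arrays, and the list without Fcgr3, were added after seeing the data.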

Additional observations from a re-analysis of the deposited data

How the results depend on the processing

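The distance between the median of the members and that of all genes, -0.13, kept its direction under the 11 alternatives that recompute it, from -0.15 to -0.11. The median ratio of the members was -0.41 with scaling on the control transcripts, by the construction of that scaling. The 17 members below the median of all genes became 27 of 42 with a floor at the 25th percentile and 8 of 10 at the 60th, where the number of genes compared changes. The 2 members past 2-fold became 1 with quantile, loess or control transcript scaling, with a pseudocount, with genes above the floor on both arrays only and without Fcgr3, and 0 with a floor at the 60th percentile, where Fcgr3 was a bound of -0.96. The 1 member at least 1.5-fold lower became 8 with scaling on the control transcripts, 2 with a floor at the 25th percentile, 4 at the lower fold threshold and 0 without Fcgr3. The 2 members at least 1.5-fold higher became 3 with a floor at the 25th percentile and 3 at the lower fold threshold, 1 with loess, with scaling on the control transcripts and without probe sets that can bind several transcripts, and 0 with a floor at the 60th percentile and with genes above the floor on both arrays only. The median of the Sertoli cell genes relative to all genes fell from 0.29 to 0.18 with quantile normalization and with loess. For the loess and quantile values the cause was not tested. The median of further macrophage genes relative to all genes turned from 0.14 to -0.0277 with a floor at the 25th percentile and to -0.0041 with genes above the floor on both arrays only, and that of MHC class I genes from 0.10 to -0.0493 without probe sets that can bind several transcripts, where fewer genes were compared. Without probe sets that can bind several transcripts, the antigen presentation median relative to all genes went from -0.23 to -0.34. That of Fcgr3, Fcgr2b, Fcer1g and Tyrobp went from -0.22 to -0.50, with 3 genes left in each group. Of 242 recomputed ratios of single members, 28 moved by more than the SD of 1 probe set, 27 of them with scaling on the control transcripts, and for 8 of 27 members the sign turned under at least 1 alternative. Fcgr3 ranged from -2.01 to -0.96 and Fcgr2b from 0.12 to 0.47. No paired analysis was possible because each genotype had 1 array. Signals at the floor limit 21 of the 48 genes.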
